A study of Mus musculus with 10 samples.

Results

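The genes described here make, modify, cut or protect the extracellular matrix: matrix metalloproteinases (Mmp), tissue inhibitors of metalloproteinases (Timp), ADAMTS proteases, lysyl oxidases (Lox and Loxl), the prolyl and lysyl hydroxylases of collagen (P4ha and Plod) and the collagen chaperone gene Serpinh1. They were chosen by symbol, with earlier results of these data known, and 51 of the 29657 genes in the deposited table matched. Bulk liver RNA came from C57BL/6 mice after 8 weeks of CDAHFD feeding, with a fat-rich diet deficient in choline and defined in L-amino acids that produces fatty liver with inflammation and scarring. All 10 libraries, controls included, came from mice on this diet, so no library shows a liver without disease. The 5 control libraries are labelled wild type and AAV8-NC, an adeno-associated virus given into a vein as the negative control. The other 5 are labelled as a hepatocyte-specific knockdown of galectin-3 by AAV8-TBG-galectin-3. The TBG promoter drives expression in hepatocytes, and what the vector carries is not described. The labels give no ages, and whether each library is 1 mouse or a pool is not stated, so the p-values measure the spread between these libraries.

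Matrix metalloproteinases are secreted or membrane-bound enzymes that need zinc, are made as inactive precursors and together can cut most matrix proteins. TIMPs bind and block them, and a scarred liver usually holds both, made by stellate cells, macrophages, endothelium and bile duct cells rather than by hepatocytes. On the building side, new collagen chains are hydroxylated in the endoplasmic reticulum by P4ha and Plod enzymes, folded with the help of the Serpinh1 product, trimmed outside the cell by procollagen proteinases and crosslinked by lysyl oxidases.

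Expression was deposited as FPKM, fragments per kilobase of transcript scaled to the mapped fragments of the library, so levels of different genes can be compared per length. The libraries held 21653 to 23079 genes above 0 FPKM; the sources used here do not give their read depth. Hepatocyte RNA was abundant in every library, with the albumin gene Alb at 21960 to 30351 FPKM. The targeted gene Lgals3 was at 105, 73.9, 61.6, 71.0 and 42.2 FPKM in controls 1 to 5 and 67.4, 90.8, 85.2, 85.6 and 41.9 FPKM in labelled knockdown libraries 1 to 5. The means were 70.8 ± 22.9 FPKM in the controls and 74.2 ± 20.1 FPKM in the labelled knockdown (mean ± SD, n = 5 each; limma adjusted p = 0.856). Because Lgals3 in bulk RNA did not follow the label, directions here rest on the labels alone, and the second group is called labelled knockdown throughout. The label names hepatocytes, while bulk RNA pools all cells of the liver. These values therefore cannot show whether Lgals3 fell in hepatocytes. In bulk liver, fewer cells of a type and less RNA per cell cannot be told apart.

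Differences were tested with limma on log2(FPKM + 1) for the 13471 genes that reached 0.5 FPKM in 5 or more libraries, and called at an adjusted p under 0.05. Log2 fold changes and fold intervals are on that scale, which understates the change of genes at low FPKM. Of the 51 members, 31 passed that filter and 20 did not. Loxl2 (lysyl oxidases), Adamts14 (procollagen proteinases) and Mmp14 (membrane-bound metalloproteinases) fell in the labelled knockdown, and 0 members rose in limma's test; 7 of the 31 (22.6%) had an unadjusted p under 0.05, all with negative values, against 33.5% of all tested genes in either direction. These 3 of 31 make 9.68% of tested members, and 9.65% of all tested genes were called lower and 7.13% higher, so the share of members called lower was close to that background. With the libraries scaled to 1 median, 1066 genes were called lower and 1241 higher, in place of 1300 and 960. Adamts14 passed the filter only through its control libraries; without it, 2 of 30 members were lower. The median log2 fold change of the tested members was -0.18, beside -0.04 for all tested genes, and 23 of 31 members (74.2%) had a negative value where 55.6% of tested genes did. Labelled knockdown 5 stood apart, with the lowest value of the 10 libraries for 20 of the 31 members, and labelled knockdown 4 resembled the controls. Leaving out labelled knockdown 4 took the members' median to -0.25, and leaving out labelled knockdown 5 took it to -0.08. The groups did not overlap, with all labelled knockdown libraries lower, for 2 of the 31 tested members (6.45%), against 7.48% of all tested genes. They are Mmp14 and Adamts14, and for Adamts14 the filter fixed this separation in advance.

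**Figure D1:**
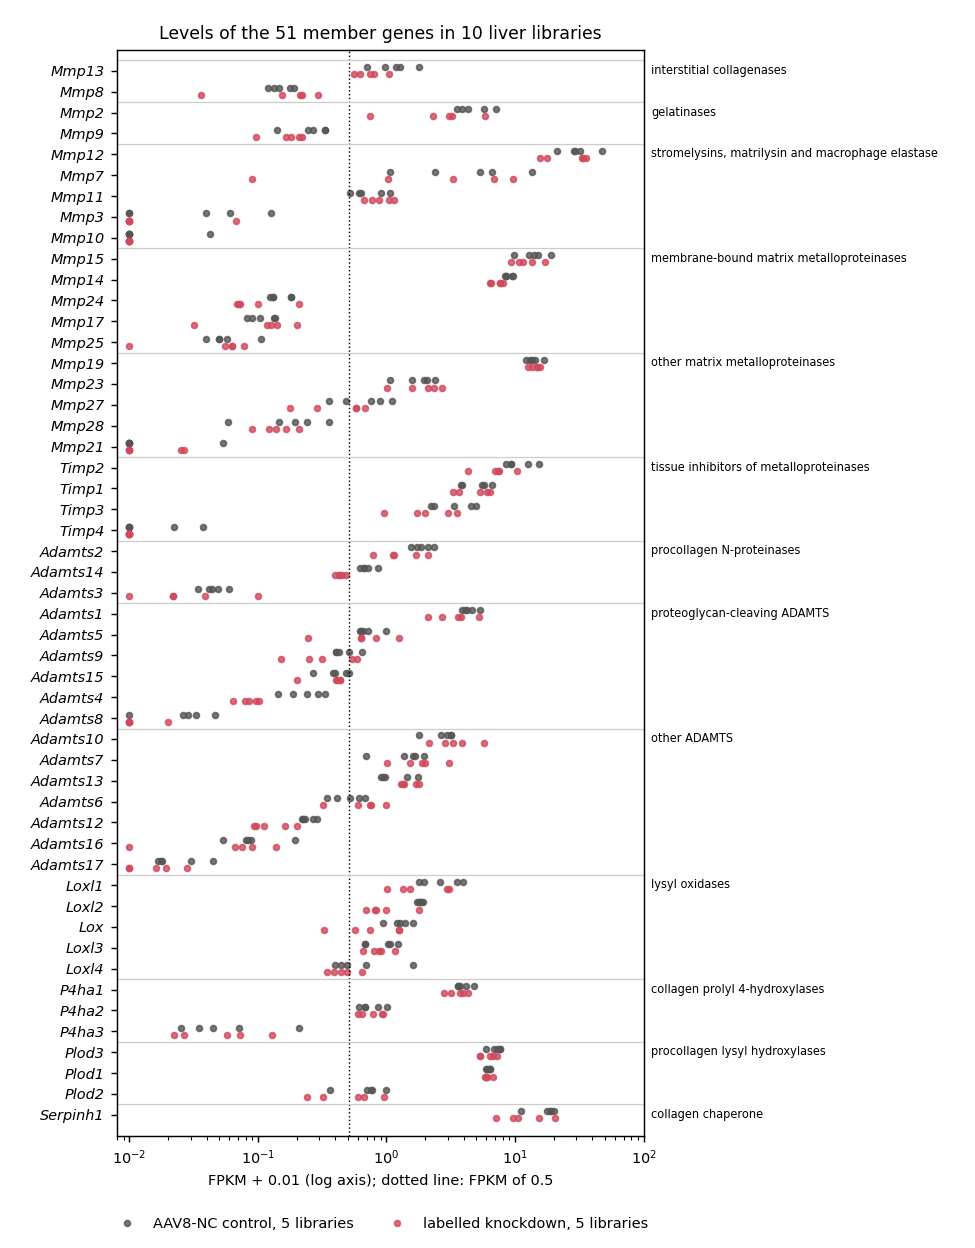
FPKM + 0.01 of each of the 51 members on a log axis, by role, with 1 point per library (grey: 5 AAV8-NC controls; red: 5 labelled knockdown libraries). Mmp12, Serpinh1, Mmp19 and Mmp15 average above 10 FPKM, while members left of the dotted line at 0.5 FPKM are mostly untested, and Mmp7 spreads over more than any other tested member.

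Among the metalloproteinases, the most abundant transcript was Mmp12, macrophage elastase. Its control libraries 1 to 5 held 47.6, 32.0, 28.6, 29.6 and 21.3 FPKM, and labelled knockdown libraries 1 to 5 held 17.6, 33.8, 33.3, 35.4 and 15.8 FPKM. Control 1 was the highest library, labelled knockdown 1 and 5 were the lowest, and the other labelled knockdown libraries stood above controls 2 to 5. The log2 fold change was -0.25 (SE 0.26, adjusted p = 0.525), which is inside the spread between libraries. Mmp12 alone gave 25.4 to 45.3% of the summed FPKM of all Mmp members in a library.

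Mmp19, a secreted metalloproteinase of basement membrane and other matrix proteins, and Mmp15, a membrane-anchored one, came next. Mmp19 was among the steadiest members, at 13.7, 13.1, 12.1, 14.2 and 16.9 FPKM in controls 1 to 5 and 14.9, 12.6, 13.5, 14.8 and 15.7 FPKM in labelled knockdown 1 to 5. Its log2 fold change was 0.04 (adjusted p = 0.819), and its 95% interval ran from 0.890-fold to 1.18-fold. Mmp15 held 13.9, 19.1, 15.0, 12.8 and 9.89 FPKM in the controls and 11.6, 10.8, 13.5, 17.0 and 9.23 FPKM in the labelled knockdown (log2 fold change -0.18, adjusted p = 0.511), with overlapping groups.

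Mmp14, the membrane-type collagenase that also activates the Mmp2 precursor, fell. The controls held 9.52, 8.37, 9.61, 8.55 and 8.44 FPKM and the labelled knockdown 7.59, 6.51, 7.62, 8.02 and 6.35 FPKM. Every labelled knockdown library lay below every control, with labelled knockdown 4 at 8.02 FPKM closest to control 2 at 8.37 FPKM. The difference was small, from 8.90 ± 0.615 to 7.22 ± 0.742 FPKM (log2 fold change -0.27, SE 0.08, adjusted p = 0.0406). The call was kept in 2 of the 10 leave-one-out fits, those without control 5 and without labelled knockdown 4, and lost in the other 8, where the adjusted p reached 0.0943 without control 3.

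Mmp2, the gelatinase that cuts denatured and basement membrane collagen, held 7.16, 5.70, 3.83, 4.33 and 3.54 FPKM in the controls and 3.07, 2.30, 3.24, 5.82 and 0.730 FPKM in the labelled knockdown. Labelled knockdown 5 was far below the rest and labelled knockdown 4 above 4 of the 5 controls. The log2 fold change of -0.65 (SE 0.30) did not pass (adjusted p = 0.157), but did without labelled knockdown 4 (adjusted p = 0.0442). Mmp9, the other gelatinase, was not tested; its libraries ranged from 0.131 to 0.325 FPKM in the controls and from 0.0871 to 0.211 FPKM in the labelled knockdown.

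Mmp13, the main interstitial collagenase of rodents, was scarce. The controls held 0.970, 0.696, 1.77, 1.25 and 1.18 FPKM and the labelled knockdown 0.553, 1.03, 0.729, 0.783 and 0.610 FPKM (log2 fold change -0.31, SE 0.13, adjusted p = 0.111). All 5 labelled knockdown libraries were below the control mean, yet the groups overlapped. Mmp8, the collagenase of neutrophils, was not tested and lay between 0.0260 and 0.282 FPKM in all 10 libraries.

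Mmp7, matrilysin, was the most variable tested member, and is described in full because of its values. The controls held 13.6, 5.30, 1.05, 2.39 and 6.60 FPKM and the labelled knockdown 9.56, 3.31, 1.03, 6.89 and 0.0797 FPKM. High and low libraries occurred in both groups, with control 1 and labelled knockdown 1 the highest and labelled knockdown 5 the lowest. Its log2 fold change of -0.53 had an SE of 0.65 (adjusted p = 0.605), and its 95% interval ran from 0.259-fold to 1.87-fold, too wide to tell a fall from a rise.

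Of the remaining tested metalloproteinases, none passed. Mmp11, stromelysin-3, was at 1.05, 0.626, 0.605, 0.510 and 0.895 FPKM in the controls and 0.859, 1.04, 0.763, 1.14 and 0.658 FPKM in the labelled knockdown (log2 fold change 0.13, adjusted p = 0.429). Mmp27 was at 0.344, 0.874, 0.475, 0.752 and 1.10 FPKM and 0.565, 0.278, 0.672, 0.571 and 0.167 FPKM (-0.23, adjusted p = 0.272). Both pairs of groups overlapped. Mmp23, an atypical membrane-anchored enzyme, averaged 1.81 ± 0.507 and 1.95 ± 0.669 FPKM (adjusted p = 0.843). Below the filter, Mmp17, Mmp24 and Mmp25, which encode membrane-bound enzymes, and Mmp28, epilysin, did not exceed 0.347 FPKM in any library. Mmp3 and Mmp10, stromelysins, and Mmp21 were near 0: Mmp3 was above 0 in 4 of 10 libraries, Mmp21 in 3 and Mmp10 in 1, and none exceeded 0.116 FPKM. Mmp16 and Mmp20 were not analysed here.

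A set of metalloproteinase promoters shares short elements, and these sequences are shown because the set holds the most abundant member (Mmp12), the most variable (Mmp7), the collagenase Mmp13, and 2 members near 0 (Mmp3 and Mmp10). Promoter windows of 300 bases, from 250 before to 50 after the annotated start, came from RefSeq on build GRCm38.p6 and matched 34 of the 51 members by symbol, in 37 windows. The AP-1 element TGAGTCA, which reads TGACTCA from the other strand, was in 5 of these 37 windows and in 5.20% of all 32851 windows. All 5 belong to metalloproteinase genes on chromosome 9, and all 5 also hold TATAAA, or its other-strand reading TTTATA, which 13.6% of all windows hold; the matches of both motifs do not overlap. Each stretch reads 5′ to 3′ along the gene, with the AP-1 element in capitals.
Mmp7: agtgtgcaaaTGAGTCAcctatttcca
Mmp12: acatcaacagTGAGTCAgatagaggat
Mmp13: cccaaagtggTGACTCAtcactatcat
Mmp3: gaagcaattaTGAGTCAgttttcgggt
Mmp10: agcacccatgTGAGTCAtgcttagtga
They lie, on the plus strand, at chr9:7692017-7692043, chr9:7347320-7347346, chr9:7272469-7272495, chr9:7445766-7445792 and chr9:7502269-7502295 in that order.
The first base of the element lies 63, 44, 35, 46 and 63 bases before the annotated start in Mmp7, Mmp12, Mmp13, Mmp3 and Mmp10. Levels under this shared element ran from 47.6 FPKM for Mmp12 in control 1 to 0 for Mmp10 in 9 libraries. Of the called members, Mmp14 and Adamts14 had a window, and both lacked these AP-1 letters. They held the GC box GGGCGG or CCGCCC, found in 22 of the 37 member windows and in 35.7% of all windows; in some windows its matches overlap each other. A stretch of each is shown with 1 GC box in capitals.
Mmp14: gagggcattgGGGCGGgggcggagga
Adamts14: cccgcgccccCCGCCCgagccgcgcg
They lie at chr14:54431569-54431594 (plus strand) and chr10:61273464-61273489 (minus strand).
A match of letters is a description and says nothing of what binds there.

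The inhibitors were led by Timp2, which also takes part in activating the Mmp2 precursor. The controls held 15.2, 12.6, 8.51, 9.24 and 9.31 FPKM and the labelled knockdown 7.00, 7.34, 7.47, 10.4 and 4.30 FPKM. Controls 1 and 2 were the highest libraries, labelled knockdown 5 the lowest, and labelled knockdown 4 lay among the controls. Its log2 fold change of -0.54 (SE 0.20) missed the threshold at an adjusted p of 0.0834; without labelled knockdown 4 the adjusted p was 0.0342. Timp1, the inhibitor that rises in liver scarring, averaged 5.13 ± 1.26 and 4.95 ± 1.42 FPKM (log2 fold change -0.05, adjusted p = 0.862; 95% interval 0.730-fold to 1.27-fold). Timp3, which binds to the matrix, averaged 3.47 ± 1.25 and 2.23 ± 1.02 FPKM (adjusted p = 0.184). Timp4 was above 0 in 2 controls, at 0.0123 and 0.0273 FPKM, and listed at 0 in all 5 labelled knockdown libraries.

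**Figure D2:**
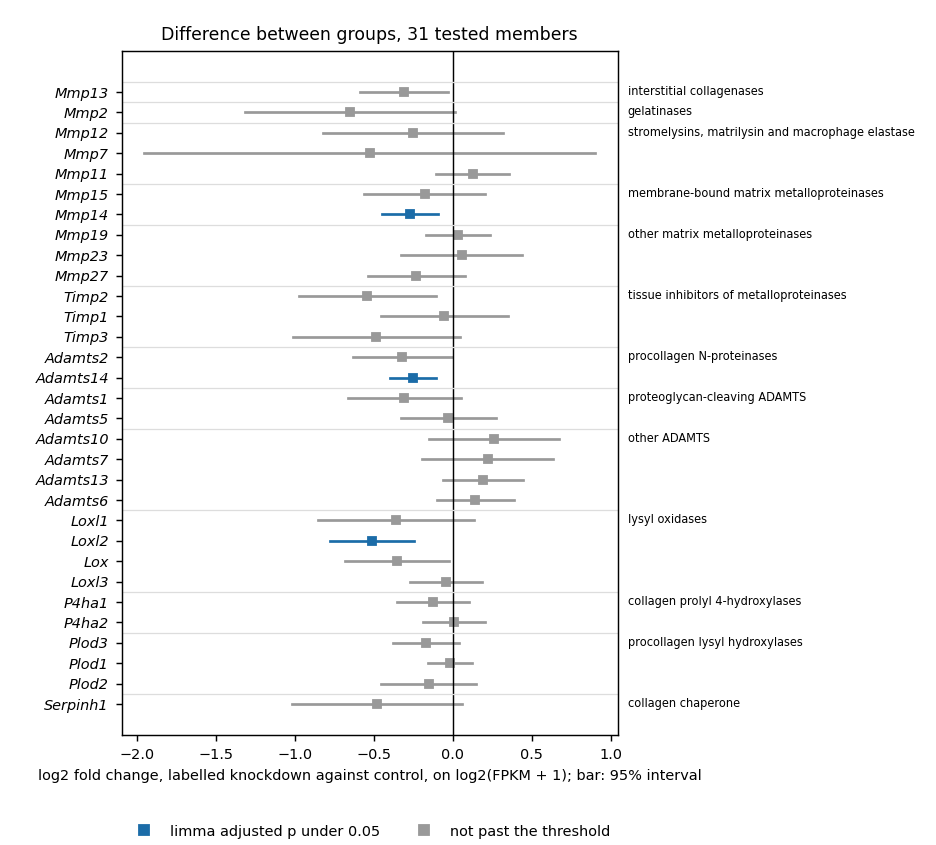
Log2 fold change of the 31 tested members on the log2(FPKM + 1) scale (squares) with 95% intervals from limma (bars), labelled knockdown against control, by role. Loxl2, Adamts14 and Mmp14, in blue, passed the threshold, and Mmp7 has the widest interval, reaching from -1.95 to 0.90.

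The ADAMTS family holds secreted proteases with thrombospondin repeats. Among those that trim the amino end of procollagen, Adamts14 fell. The controls held 0.661, 0.609, 0.849, 0.662 and 0.714 FPKM and the labelled knockdown 0.388, 0.472, 0.414, 0.414 and 0.441 FPKM, with little spread within the labelled knockdown. All 5 controls and 0 labelled knockdown libraries reached 0.5 FPKM, so Adamts14 was tested only through its controls. That filter fixed the lack of overlap in advance, so it lends the fall no weight. The log2 fold change was -0.25 (SE 0.07, adjusted p = 0.0276), and the call was kept in 7 of the 10 leave-one-out fits. It was lost without control 3 (adjusted p = 0.0675), labelled knockdown 1 (0.0522) or labelled knockdown 3 (0.0577). Adamts2, the better known enzyme of this kind and the more abundant in these livers, held 2.09, 2.34, 1.84, 1.72 and 1.54 FPKM in the controls and 1.69, 1.12, 1.13, 2.10 and 0.773 FPKM in the labelled knockdown (log2 fold change -0.32, adjusted p = 0.141). The groups overlapped: labelled knockdown 4 was as high as control 1, and labelled knockdown 1 was above control 5. Adamts3, the remaining member of this role, did not exceed 0.0903 FPKM.

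A pair of further ADAMTS genes separated the groups at levels below the filter, and are described because of their values. Adamts4, an aggrecanase, held 0.134, 0.229, 0.281, 0.178 and 0.325 FPKM in the controls and 0.0537, 0.0863, 0.0754, 0.0922 and 0.0688 FPKM in the labelled knockdown. Its mean in the labelled knockdown was 0.328 of that in the controls, and it was the 1 member marked as significant in the authors' deposited table (q = 0.000445), where 0.803% of genes were marked as down. Adamts12, which cuts cartilage oligomeric matrix protein, held 0.221, 0.280, 0.214, 0.211 and 0.256 FPKM in the controls and 0.0827, 0.0862, 0.151, 0.192 and 0.101 FPKM in the labelled knockdown and had a q of 0.00881, without the mark, in the authors' deposited table. In both genes every labelled knockdown library lay below every control. Over all 51 members, the groups were separated in this direction for 4, these 2 with Adamts14 and Mmp14, beside 3.79% of all genes. With no filter, limma called Adamts4 (adjusted p = 0.0347), Adamts12 (0.0434) and Adamts14 (0.0349), when 2.30% of genes were called lower, while Loxl2 and Mmp14 lost their calls. The levels were low, with no library of Adamts4 or Adamts12 above 0.325 FPKM. Loxl2 (q = 0.00310), Adamts14 (0.00322) and Mmp14 (0.0370) also had a q under 0.05 in the authors' deposited table, without the mark.

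Adamts1, a proteoglycan-cutting protease with anti-angiogenic activity, was the most abundant ADAMTS transcript. The controls held 3.86, 4.08, 4.20, 5.29 and 4.60 FPKM and the labelled knockdown 3.59, 2.68, 2.10, 5.27 and 3.78 FPKM (log2 fold change -0.31, adjusted p = 0.213). Labelled knockdown 2 and 3 were lowest and labelled knockdown 4 was level with the highest control. Adamts5, the other main aggrecanase, averaged 0.716 ± 0.152 and 0.710 ± 0.367 FPKM (adjusted p = 0.906). Adamts9 and Adamts15, untested, lay between 0.141 and 0.638 FPKM, and Adamts8 did not exceed 0.0360 FPKM.

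The 4 tested ADAMTS genes with other roles all had positive values, and 0 passed. Adamts10, which acts on fibrillin microfibrils, held 3.17, 3.18, 2.93, 2.66 and 1.77 FPKM in the controls and 5.76, 3.30, 2.87, 3.85 and 2.13 FPKM in the labelled knockdown (log2 fold change 0.26, adjusted p = 0.354). Adamts13, which cuts von Willebrand factor and is made by stellate cells, held 0.960, 1.43, 1.75, 0.932 and 0.900 FPKM in the controls and 1.79, 1.32, 1.37, 1.67 and 1.29 FPKM in the labelled knockdown. All 5 labelled knockdown libraries were above the control mean, but control 3 was near the top (log2 fold change 0.19, adjusted p = 0.264). Adamts7, which also cuts cartilage oligomeric matrix protein, averaged 1.45 ± 0.476 and 1.88 ± 0.752 FPKM (adjusted p = 0.441). Adamts6 averaged 0.505 ± 0.140 and 0.672 ± 0.246 FPKM (adjusted p = 0.397). Adamts16 and Adamts17 did not exceed 0.184 FPKM. Adamts18, Adamts19 and Adamts20 were not analysed here.

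**Figure D3:**
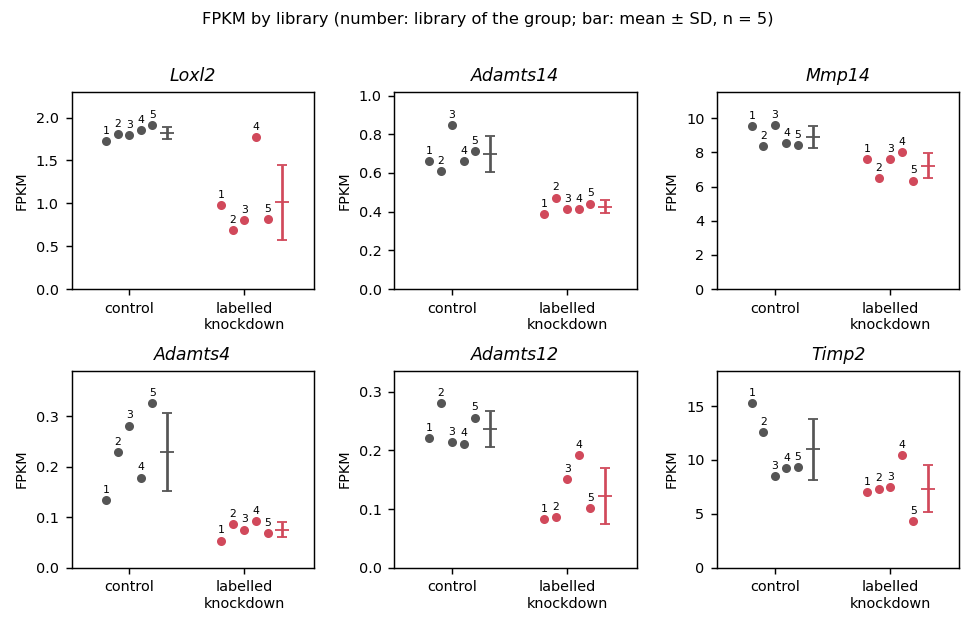
FPKM in each library for the 3 called members (Loxl2, Adamts14, Mmp14), for Adamts4 and Adamts12, which were below the filter, and for Timp2, with bars for the mean ± SD of 5 libraries. Labelled knockdown 4 lies inside the control range of Loxl2 and Timp2, and the groups are apart for the other 4 genes.

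Lysyl oxidases start the crosslinking of collagen and elastin by oxidising lysine side chains. Loxl2 fell, and its 5 controls were nearly equal, at 1.73, 1.81, 1.80, 1.85 and 1.92 FPKM. The labelled knockdown held 0.977, 0.684, 0.807, 1.77 and 0.818 FPKM, so 4 libraries were well below the controls and labelled knockdown 4 was inside their range. The means were 1.82 ± 0.0695 and 1.01 ± 0.438 FPKM (log2 fold change -0.51, SE 0.12, adjusted p = 0.0200). Loxl2 kept its call when any single library was left out, at an adjusted p between 0.00250 and 0.0470. With no filter its adjusted p was 0.0555.

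Loxl1, which is tied to elastic fibres and was the most abundant of the family, held 3.90, 3.50, 1.79, 2.59 and 1.95 FPKM in the controls and 3.03, 1.34, 1.53, 2.97 and 0.996 FPKM in the labelled knockdown (log2 fold change -0.36, adjusted p = 0.291). Lox itself averaged 1.28 ± 0.249 and 0.820 ± 0.419 FPKM (log2 fold change -0.35, adjusted p = 0.127). In both genes labelled knockdown 1 and 4 stood with the controls, and labelled knockdown 5 was lowest. Loxl3 averaged 0.930 ± 0.247 and 0.870 ± 0.187 FPKM (adjusted p = 0.810). Loxl4 was not tested; control 5 held 1.59 FPKM of it, the highest level of any untested member in any library, and the other 9 libraries held 0.333 to 0.680 FPKM.

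Serpinh1, whose product HSP47 escorts procollagen through the endoplasmic reticulum, was among the most abundant members. The controls held 17.7, 20.3, 18.6, 19.1 and 11.0 FPKM and the labelled knockdown 20.6, 9.58, 10.6, 15.4 and 7.11 FPKM. Control 5 sat among the lower labelled knockdown libraries, and labelled knockdown 1 was the highest of all. The log2 fold change was -0.48 (SE 0.25, adjusted p = 0.197).

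No hydroxylase passed the test. P4ha1, the main catalytic subunit of collagen prolyl 4-hydroxylase, held 3.74, 4.18, 3.62, 4.75 and 3.57 FPKM in the controls and 3.93, 2.81, 3.75, 4.27 and 3.15 FPKM in the labelled knockdown (log2 fold change -0.12, adjusted p = 0.436). P4ha2 averaged 0.758 ± 0.164 and 0.769 ± 0.156 FPKM (adjusted p = 0.950), and P4ha3 did not exceed 0.200 FPKM. Plod3, a lysyl hydroxylase that also adds sugars to collagen, held 6.80, 7.58, 7.65, 7.27 and 5.97 FPKM in the controls and 6.70, 5.30, 6.36, 7.22 and 5.34 FPKM in the labelled knockdown (log2 fold change -0.17, adjusted p = 0.243). Plod1, which hydroxylates lysines of the triple helix, had the smallest spread of all members, with a coefficient of variation of 4.93% over the 10 libraries. Its difference lay between 0.896-fold and 1.09-fold (adjusted p = 0.851). Plod2, which acts on the telopeptides that form stable crosslinks, averaged 0.708 ± 0.225 and 0.548 ± 0.286 FPKM (adjusted p = 0.467).

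Some libraries were low or high for many members at once. Labelled knockdown 5 lay below the gene's median over the 10 libraries for 30 of the 31 tested members. Labelled knockdown 4 lay below the median for 7, fewer than 4 of the 5 controls (10, 15, 11 and 18 in controls 1, 3, 4 and 5) and more than control 2, at 5. The mean of the tested members on the log2(FPKM + 1) scale was 1.92 to 2.18 in the controls, 2.14 in labelled knockdown 4 and 1.48 in labelled knockdown 5. Without labelled knockdown 4, 7 of the 31 members were called lower, the same 3 with Adamts1, Adamts2, Mmp2 and Timp2, when 12.9% of all tested genes were. With array weights, which count libraries that depart from their group for less, 6 members were called lower, when 15.2% of all tested genes were. Without labelled knockdown 5, Adamts14 and Loxl2 were called lower, when 5.26% of all tested genes were.

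**Figure D4:**
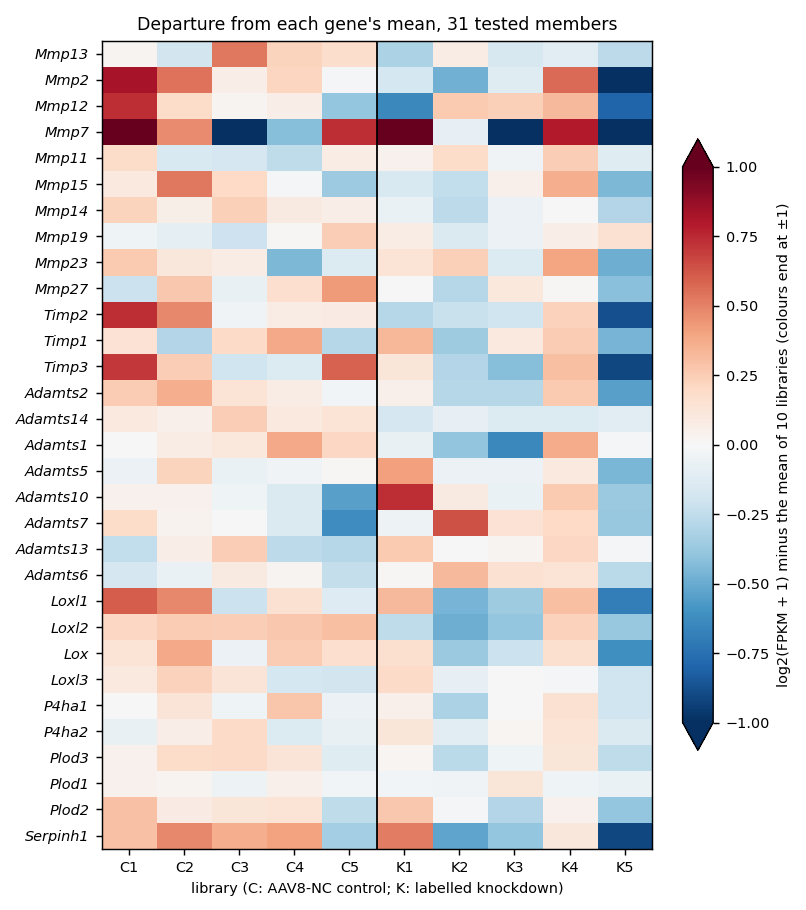
Departure of each of the 31 tested members (lines) from its mean over the 10 libraries, as a difference in log2(FPKM + 1), in controls (C1 to C5) and labelled knockdown libraries (K1 to K5); blue is lower and red higher. K5 is low for most members, K2 and K3 are low for many, and K4 resembles the controls.

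Marker lists of stellate cells, monocyte-derived macrophages and bile duct cells were also lowest in labelled knockdown 5, by mean log2(FPKM + 1) and by summed FPKM. The neutrophil list was lowest there by the mean only, and the Kupffer cell list by the sum only. The counts of called markers stand beside 9.65% of all tested genes called lower and 7.13% called higher. The 14 stellate cell and myofibroblast markers, all tested, had a median log2 fold change of -0.34, and 4 fell (Col1a1, Hgf, Lum and Reln). Their summed level was 139 to 163 FPKM in the controls and 81.3 to 154 FPKM in the labelled knockdown. Col1a1, Col1a2 and Col3a1 are also in the collagen chain list below, so the fall of Col1a1 is counted in both lists. Of the Kupffer cell markers, 2 of 9 tested fell (Adgre1 and Cd5l), with a summed level of 231 to 333 FPKM in the controls and 179 to 266 FPKM in the labelled knockdown. Of the 10 endothelial markers 1 fell, Pecam1 (summed level 27.8 to 47.4 and 26.2 to 37.9 FPKM), and 0 of 10 markers of monocyte-derived macrophages (242 to 551 and 114 to 407 FPKM) and 0 of 6 tested markers of bile duct cells (142 to 390 and 54.6 to 317 FPKM) passed. Of the 10 hepatocyte markers, Apob and Cps1 fell and Ttr rose, and their sums were 39375 to 44243 FPKM and 35859 to 44393 FPKM. Few markers of neutrophils (3), of T and NK cells (3) and of B and plasma cells (1) could be tested, and 0 passed. No marker of these lists was at 0 in every library, and what part these markers have in the falls of Loxl2, Adamts14 and Mmp14 was not tested.

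Mmp7, Mmp12 and Mmp2 were set beside a marker list each, a pairing made after their values were seen. Mmp7 was highest in control 1, where the bile duct list averaged 3.21 on the log2(FPKM + 1) scale, and lowest in labelled knockdown 5, where it averaged 1.61. Not all libraries between them kept that order. Labelled knockdown 1 held 9.56 FPKM of Mmp7 at a list mean of 2.69, and control 2 held 5.30 FPKM at 2.97. For Mmp12, control 1 and labelled knockdown 5 were likewise the highest and lowest libraries, with a mean of 4.10 and 2.86 in the list of monocyte-derived macrophages. Other libraries did not follow that order: labelled knockdown 1 had the second lowest Mmp12, at 17.6 FPKM, with a list mean of 3.72, and control 3, at 28.6 FPKM, had the lowest list mean of the controls, 3.50. Spp1, osteopontin, is in both marker lists. Mmp2 was highest in control 1 and lowest in labelled knockdown 5, where the stellate cell list averaged 3.03 and 2.24. Here too other libraries departed from that order. The list mean was highest in control 2, at 3.07, and control 3, with a list mean of 3.01, held 3.83 FPKM of Mmp2. The part of these cells in the spread of the 3 genes was not tested.

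**Figure D5:**
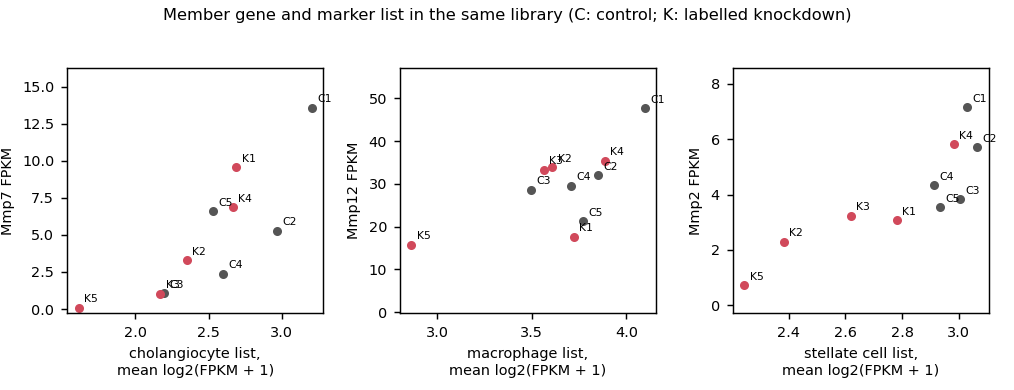
FPKM of a member gene (vertical) against the mean log2(FPKM + 1) of a marker list (horizontal) in each library, for Mmp7 with bile duct cells, Mmp12 with monocyte-derived macrophages and Mmp2 with stellate cells. Labelled knockdown 5 lies at the low end and control 1 at the high end for Mmp7 and Mmp12, and the same libraries are lowest and highest in Mmp2 FPKM.

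Across all genes, longer transcripts tended to be lower in the labelled knockdown libraries than in the controls. In each library, the departure of every gene's log2 level from the gene's mean over all libraries was fitted on transcript length. The slope per doubling of length was 0.0347 ± 0.0115 in the controls and -0.0347 ± 0.0186 in the labelled knockdown (SD, n = 5 each). The exact two-sided permutation p was 0.00794, the smallest that 5 against 5 allows. Because departures were fitted, the group means mirror each other by construction, and the trend is read only from the difference between the groups. To remove the trend, a smooth curve on transcript length with 4 degrees of freedom, not the straight line above, was taken out of every library. After that, 5.46% of genes were called lower and Loxl2 was the 1 member called (log2 fold change -0.40, adjusted p = 0.0316). Mmp14 then had a log2 fold change of -0.19 (adjusted p = 0.0829) and Adamts14 of -0.14 (adjusted p = 0.217). Of the cell type markers, 3 of stellate cells, 4 of Kupffer cells, 2 of hepatocytes and 0 of endothelium were then called lower. The cause of the length trend was not tested.

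In the wider pathway 15 genes fell and 1 rose, again beside 9.65% and 7.13% of all tested genes. Tested genes numbered 15 for collagen chains, 15 for other collagen processing, 14 for other proteases and inhibitors, and 2 for ADAMTS-like genes and substrates. The pathway lists were chosen with earlier results of these data known, so their counts are a description and not independent support. The counts moved with the setting. With no filter 3 fell and 0 rose, when 2.30% of all genes were called lower. With the length trend removed 7 fell and 1 rose, when 5.46% of all genes were called lower. Fewer fell without control 1 (5), 2 (3), 3 (4) or 4 (5), or without labelled knockdown 1 (7), 2 (4), 3 (4) or 5 (4). Without control 5, 12 fell, and without labelled knockdown 4, 20 did. The whole series moved too, from 1300 genes called lower with all libraries to between 549 and 1736 without 1 library. Of all tested genes, 5.26% were called lower without labelled knockdown 5 and 12.9% without labelled knockdown 4. Of 17 collagen chain genes, 15 were tested and 6 fell (Col1a1, Col4a2, Col5a1, Col5a2, Col14a1 and Col15a1), while Col5a3 rose. Col4a2, a chain of basement membrane collagen, averaged 7.35 ± 0.941 FPKM in the controls and 5.00 ± 1.03 FPKM in the labelled knockdown (log2 fold change -0.49, adjusted p = 0.0261). Col15a1 averaged 2.08 ± 0.596 and 1.01 ± 0.378 FPKM (-0.61, adjusted p = 0.0269). Col5a2, part of the type V collagen that nucleates fibrils, averaged 1.75 ± 0.212 and 1.05 ± 0.369 FPKM (-0.44, adjusted p = 0.0312). With the length trend removed, 2 chains were called lower and 1 higher.

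Among 15 tested genes of collagen processing outside the member families, 5 fell and 0 rose. P4hb, protein disulfide isomerase and the partner subunit of P4ha1, averaged 782 ± 29.5 FPKM in the controls and 623 ± 31.1 FPKM in the labelled knockdown with no overlap (log2 fold change -0.33, adjusted p = 0.0202). Sparc, a collagen-binding protein, averaged 26.5 ± 2.64 and 16.6 ± 5.83 FPKM (adjusted p = 0.0295). Mrc2, an uptake receptor for collagen fragments, averaged 1.77 ± 0.277 and 1.10 ± 0.310 FPKM (adjusted p = 0.0329). Colgalt1 and Crtap, which modify collagen in the endoplasmic reticulum, also fell (adjusted p = 0.0381 and 0.0437). With the length trend removed, 3 of this list were called lower.

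Of 14 tested genes for other matrix proteases and inhibitors, 4 fell and 0 rose. Adam9, a membrane-bound sheddase, held 15.2, 15.6, 15.2, 13.1 and 12.9 FPKM in the controls and 8.02, 9.19, 9.19, 10.1 and 8.56 FPKM in the labelled knockdown, with no overlap (log2 fold change -0.62, adjusted p = 0.00625). Pzp, a broad protease inhibitor of the alpha-2-macroglobulin family that hepatocytes secrete, averaged 567 ± 27.9 and 336 ± 38.1 FPKM (log2 fold change -0.76, adjusted p = 0.00572). The sheddases Adam10 and Adam17 also fell (adjusted p = 0.0431 and 0.0481). With the length trend removed, 2 of this list were called lower. Of 12 ADAMTS-like genes and ADAMTS substrates, 2 were tested and 0 passed.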

How the data were processed

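RNA sequencing of 10 liver libraries was analysed from 1 deposited gene table. Per the submitters' processing notes, cutadapt 1.9, HISAT2 2.0.4 and StringTie 1.3.4d were used; the notes name the human build GRCh38, while the gene identifiers are those of mouse, so no coordinate rests on the authors' files. The authors deposited FPKM per library, per the file headers. The deposited ratio, its log2 value and the p-value and q-value of the authors' own test are quoted only where the authors' deposited table is named; no source used here names that test. FPKM steps did not give back whole reads, so depth is unknown and no counting interval is given.

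Groups came from the sample titles, and the labels give no batch. log2(FPKM + 1) was fitted with limma 3.58.1 in R 4.3.3 (mean-variance trend, two-sided) for genes with at least 0.5 FPKM in at least 5 libraries, with Benjamini-Hochberg adjustment over all tested genes; the code was tested on simulated data. Transcript lengths were those of each gene's longest transcript in GENCODE M21 and covered 97.9% of tested genes, and promoter letters came from RefSeq. All 10 values are given for called members, for the most abundant tested member of each role, and for the member with the smallest p in roles without a call; others so described are said to be. In pathway lists, called genes with the smallest p are named. Alternatives covered the pseudocount, filter, scaling, trend, weights, replicate block, transcript length, threshold and each library left out. The members and lists were chosen with earlier results of these data known.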

Additional observations from a re-analysis of the deposited data

Results flagged for a closer look

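Within-group values of the 31 tested members were searched for a library far from the other 4 of its group, on the FPKM and the log2(FPKM + 1) scale. In 62 groups of 5 libraries, 4 on the FPKM scale and 3 on the log2 scale had an end value whose gap to its neighbour exceeded 0.71 of the group's range (Dixon's limit), and chance alone marks about 1 in 20 groups. Loxl2 reached 1.77 FPKM in labelled knockdown 4, where the next library of the group held 0.977 FPKM; its gap was 0.731 of the range in FPKM and under the limit on the log2 scale. The other 3 passed on both scales. Adamts5 reached 0.981 FPKM in control 2, where the next control held 0.705 FPKM. Plod1 was at 6.79 FPKM in labelled knockdown 3, above 6.02 FPKM in the next library of the group. Serpinh1 was at 11.0 FPKM in control 5, below the 17.7 FPKM of the next control.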

How the results depend on the processing

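Loxl2 kept its call in every alternative except the fit with no filter, and in every fit without 1 library. Calls of members as lower (3) became 6 with array weights, where Adamts2, Lox and Serpinh1 were added, 1 with the length trend removed and 1 to 7 without 1 library. With the replicate number as a block, 1 member, Loxl2, was called lower, when 986 of 13471 genes were. The labels do not say whether the numbers pair the libraries. Departures of same-numbered libraries from their group means had correlations of -0.0145 to 0.114, and only number 1 correlated best with its own. Such correlations cannot decide whether the libraries are paired. The members' median stayed between -0.26 and -0.08. Genes called lower (1300) were 682 with no filter, 2047 with array weights, 720 with the length trend removed, 2083 at an adjusted p under 0.10 and 549 to 1736 without 1 library. Genes called higher (960) were 511 with no filter, 1500 at 0.10 and 442 to 966 without 1 library. Pathway genes lower (15) were 3 with no filter, 7 with the length trend removed and 3 to 20 without 1 library; the 1 pathway gene higher became 0 at a pseudocount of 0.1, with no filter and with array weights, and 0 to 1 without 1 library. Uncalled log2 values changed sign: Adamts5 to 0.00935 with median scaling and 0.0795 with the length trend removed, Plod1 to 0.0174 with median scaling, 0.0159 with quantile normalization, 0.0189 with array weights and 0.0786 with the length trend removed, Loxl3 to 0.0567 and Mmp23 to -0.00307 with the length trend removed, and P4ha2 to -0.0134 with array weights. Without 1 library, Adamts5 ran from -0.133 to 0.0826, Loxl3 from -0.0946 to 0.0114, Mmp23 from -0.0480 to 0.188, P4ha2 from -0.0231 to 0.0580, Mmp19 from -0.0115 to 0.101, Timp1 from -0.142 to 0.0568 and Lgals3 from -0.0934 to 0.264. The cause of these shifts was not tested. Median scaling ended the call of Adamts14 (adjusted p = 0.0698), and at least 1 FPKM in at least 5 libraries left it untested. Read depth is unknown, so no limit can be set for the 20 untested members.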
